A study of Mus musculus with 2 samples.

Results

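Striated muscle, the contractile tissue of heart and skeleton, carries a set of microRNAs that most other tissues hold at low levels. The 9 precursor genes of this set that have a row in the deposited tables, of 1973 rows in all, were followed here in the newborn mouse lung. They were chosen by name: Mir208b, Mir208a, Mir499, Mir206, Mir133b, Mir1b, Mir1a-1, Mir133a-1 and Mir133a-2. Small RNA under 30 bases was sequenced from lung tissue of B6NCrl mice, a substrain of C57BL/6N, at postnatal day 0, with no treatment or engineered allele named in the labels. The 2 libraries form 1 group, and by the labels they came from pup 1 and pup 3 of the same pregnancy, with 2 lungs in each. The libraries carry the same donor record, and sex was not collected. Gene rows held 4532902 reads in replicate 1 and 5426081 in replicate 2, and levels are reads per 1000000 of these (CPM). Each read was taken to stand for a mature molecule of about the same length, so levels were not divided by gene length. In bulk tissue, fewer cells of a type and less of a miRNA per cell cannot be told apart, and no heart or skeletal muscle sample was measured here to set the lung values against.

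These miRNAs are made along with the muscle programme itself. The genes Mir208a, Mir208b and Mir499 lie in introns of myosin heavy chain genes and are produced from the same transcripts as the motor proteins. Myh6 encodes the fast alpha chain of adult rodent heart, and Myh7 the slow beta chain of the fetal ventricle and of slow skeletal fibres. Mir1a and Mir133a genes sit in pairs on shared transcripts in heart and skeletal muscle, whereas Mir206 and Mir133b share a long noncoding transcript of skeletal muscle. In mice, cardiac muscle also forms a sleeve around the pulmonary veins, so a normal lung can hold some cardiac muscle cells.

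The mature sequences decide which of these genes can be counted, and they are shown for that reason, 5′ to 3′, with the seed (bases 2 to 8, which pair with target messages) in capitals. They come from the RefSeq table of GRCm38.p6, in which 6 of the 9 genes had a mature entry. The myosin-hosted arms and those of the other genes read as follows.
miR-208b-3p: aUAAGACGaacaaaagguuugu
miR-208a-3p: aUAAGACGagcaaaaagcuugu
miR-499-5p: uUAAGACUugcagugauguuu
miR-206-3p: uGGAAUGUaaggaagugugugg
miR-133b-3p: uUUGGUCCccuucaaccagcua
miR-1a-1-5p: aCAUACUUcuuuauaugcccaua
Over 22 bases, miR-208a-3p and miR-208b-3p were identical at 19 and differed by G10A, A16G and C18U, counted from the 5′ end with the base of miR-208a-3p first. Their seed was the same, and no other mature entry among 1679 held it. miR-499-5p shared bases 2 to 7 with them and differed from miR-208b-3p in the seed by G8U. In that table these 3 were the only entries with those bases at positions 2 to 7. As background, miR-206 shares its seed with miR-1, and miR-133b shares its seed with miR-133a. The 3p arms of the Mir1 and Mir133a genes have no entry in that table and were not compared.

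The precursors of Mir208a and Mir208b differ along their length while the arm in capitals, the 3p mature sequence, stays close. They are shown because reads of the pair can be told apart by these letters.
Mir208b: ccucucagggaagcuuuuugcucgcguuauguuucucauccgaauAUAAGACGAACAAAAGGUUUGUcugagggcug
Mir208a: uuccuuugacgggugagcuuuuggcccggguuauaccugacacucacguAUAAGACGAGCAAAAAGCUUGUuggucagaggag
No stretch of 20 bases of Mir208b, Mir208a, Mir499 or Mir206 was found on either strand of another annotated miRNA precursor. The other 5 genes each held such a stretch, against 50.3% of the 1894 gene rows with a precursor sequence. Gene rows were taken to hold only reads with a single position, because reads with several positions have a row of their own. The reads with several positions numbered 2860715 in replicate 1 and 3812820 in replicate 2.

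The myosin-hosted miRNAs made up nearly all reads of the set. In replicate 1, Mir208b, Mir208a and Mir499 held 97.4% of the set's reads (exact Clopper-Pearson 95% interval 96.6% to 98.1%). In replicate 2 they held 96.0% (95.1% to 96.7%). The set as a whole came to 1892 reads in replicate 1 and 2478 in replicate 2, or 417 and 457 CPM, which is 0.0437% of the reads on miRNA genes. With at least 10 reads in each library, 4 of the 9 genes were detected, beside 15.6% of all 1973 rows. At this minimum the detected genes were the same 4 that share no stretch with another gene. With at least 3 reads in each library Mir1b was the fifth. Since reads with several positions are not counted, the low counts of the genes with shared stretches cannot be read as low levels. Intervals cover counting error only, since PCR copies are not independent molecules.

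**Figure D1:**
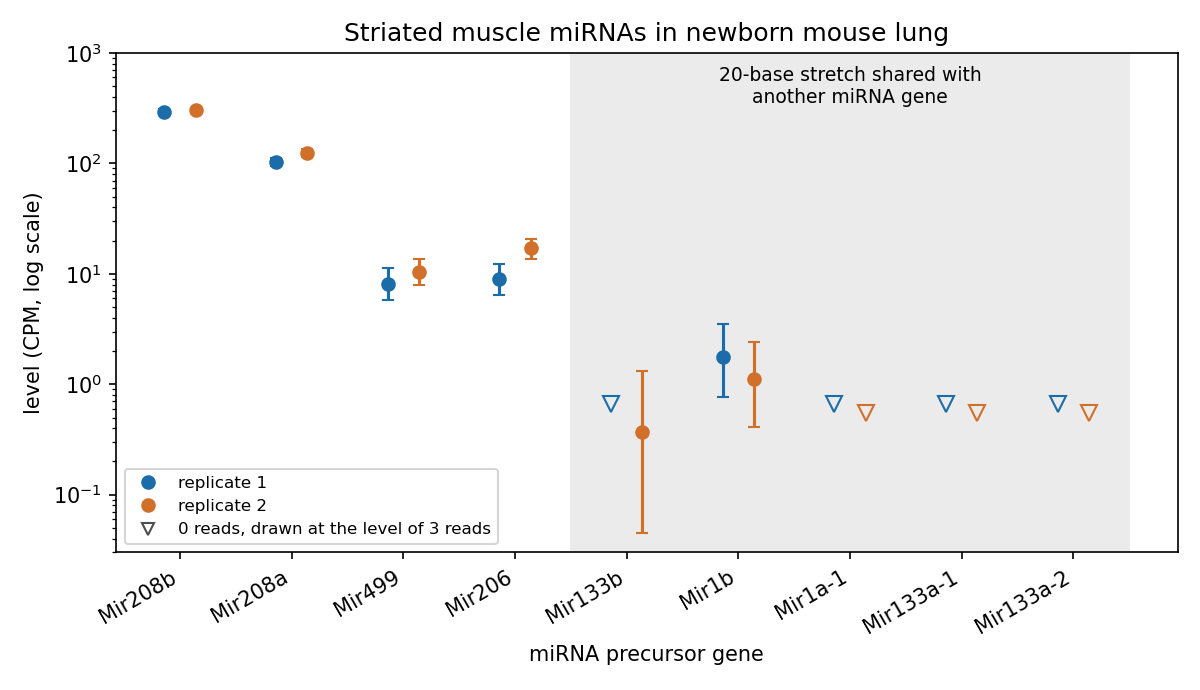
Level of each striated muscle miRNA gene in CPM on a log axis, by library (blue replicate 1, orange replicate 2), with exact 95% counting intervals as bars. Open triangles mark 0 reads and are drawn at the level of 3 reads (0.662 and 0.553 CPM), and the shaded genes share a 20-base stretch with another miRNA gene, so their values can be too low. Mir208b has the highest counted level, at 295 and 304 CPM.

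Mir208b, encoded within Myh7, had the most counted reads of the set, and its place against the 5 genes with shared stretches is not known. It lies at chr14:54975700-54975776 on the minus strand of GRCm38, in intron 31 of the Myh7 transcript model with the most exons, 41, and 102 bases past the upstream exon. Replicate 1 held 1337 reads of it, a level of 295 CPM (279 to 311), and replicate 2 held 1649 reads, a level of 304 CPM (289 to 319). The intervals overlap, and the mean was 299 ± 6.33 CPM (SD, n = 2), rank 126 of the 308 detected genes. By level, its nearest neighbours were Mir30b at 315 ± 8.31 CPM and Mir224 at 301 ± 51.6 CPM above, and Mir450b at 295 ± 22.3 CPM and Mir187 at 266 ± 23.6 CPM below. These neighbours were chosen by mean level over 2 libraries alone, which says nothing of shared control.

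Mir208a, encoded within Myh6, was the next. Its precursor lies at chr14:54949060-54949142 on the minus strand, in intron 29 of a Myh6 transcript model with 39 exons. A gap of 26.6 kb separates it from the precursor of Mir208b, and the hosts are neighbours transcribed in the same direction. It had 469 reads in replicate 1, or 103 CPM (94.3 to 113), and 672 reads in replicate 2, or 124 CPM (115 to 134). These intervals do not overlap, and replicate 2 was the higher. The mean of 114 ± 14.4 CPM (SD, n = 2) placed it at rank 165, between Mir543 at 115 ± 26.2 CPM and Mirlet7c-1 at 110 CPM, the latter with 533 and 561 reads in replicates 1 and 2. Mir340 at 120 ± 4.11 CPM and Mir329 at 104 ± 4.79 CPM stood next in the order.

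**Figure D2:**
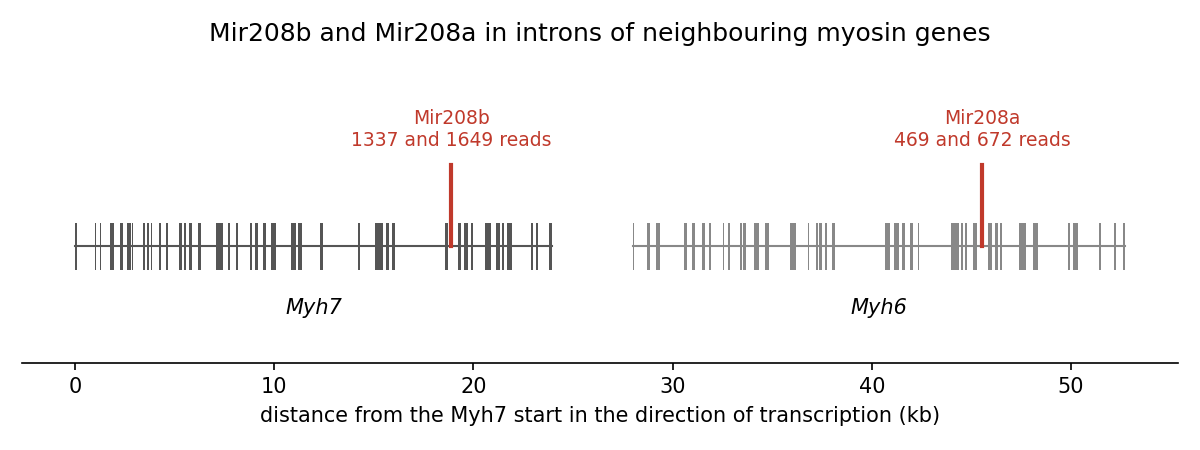
Exons (grey boxes) of Myh7 and Myh6 along their locus, in kb from the Myh7 start in the direction of transcription, with the precursors of Mir208b and Mir208a in red and their reads in replicates 1 and 2. Each precursor lies in an intron of its host, at 18.9 kb from the start of Myh7 and 17.8 kb from the start of Myh6.

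The miRNA of the beta chain gene had more reads than that of the alpha chain gene in each library. Mir208b had 2.85 times the reads of Mir208a in replicate 1 (exact 95% interval 2.56 to 3.17) and 2.45 times in replicate 2 (2.24 to 2.69). On the log2 scale the ratio was 1.40 ± 0.15 (SD, n = 2). The intervals of the libraries overlap, cover counting error only, and each lies above an equal number of reads. How evenly library preparation captures different sequences was not measured here, so ratios between genes are ratios of reads. No p is given, because the genes share their library and the ratio is a description of 2 pups. A ratio of mature reads need not equal that of the host messages, which were not measured here.

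Mir499, the miRNA of the third myosin gene, Myh7b, was far lower than Mir208a and Mir208b. It lies at chr2:155622880-155622958 on the plus strand, in intron 19 of the Myh7b transcript model with 42 exons. Its reads numbered 37 in replicate 1, or 8.16 CPM (5.75 to 11.3), and 57 in replicate 2, or 10.5 CPM (7.96 to 13.6). The intervals overlap. Mir208a had 12.7 times the reads of Mir499 in replicate 1 and 11.8 times in replicate 2, a log2 ratio of 3.61 ± 0.074 (SD, n = 2). The comparison of Mir208a with Mir499 was added after the values were seen.

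Mir206, the skeletal muscle member, was counted at a level close to that of Mir499. It lies at chr1:20679010-20679082 on the plus strand within Gm28653, a long noncoding RNA gene, where it overlaps an exon of 1 transcript model and an intron of another. Replicate 1 held 41 reads, or 9.04 CPM (6.49 to 12.3), and replicate 2 held 92 reads, or 17.0 CPM (13.7 to 20.8). The intervals do not overlap, and replicate 2 was the higher by 1.87 times. In replicate 1 the ratio of Mir206 to Mir499 was 1.11 (0.693 to 1.78), which does not separate them. In replicate 2 it was 1.61 (1.15 to 2.29), so their order rests on that library. The comparison of Mir206 with Mir499, too, was added after the values were seen. Mir208a stood above Mir206 in each library, by 11.4 times in replicate 1 (8.30 to 16.2) and 7.30 times in replicate 2 (5.87 to 9.18), a log2 ratio of 3.19 ± 0.46 (SD, n = 2).

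Mir133b, which lies 3.69 kb downstream of Mir206 in the same noncoding gene at chr1:20682769-20682887, had 0 reads in replicate 1 and 2 in replicate 2. In replicate 2, Mir206 had 46.0 times its reads (12.4 to 386). The genes are not comparable by these counts. The 22-base miR-133b-3p, shown above, was found whole in no other annotated precursor. Without its last base it was found in Mir133a-1 and Mir133a-2, so a read shorter by 1 base has 3 possible sources and goes to no gene row. The other arm, miR-133b-5p, was found in no other annotated precursor, whole or without its last 1 or 2 bases.

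The Mir1 and Mir133a genes, known as some of the most abundant of heart and skeletal muscle, were nearly without counted reads. Mir1a-1 at chr2:180389048-180389124 and Mir133a-2, 9.25 kb downstream of it, had 0 reads in both libraries, on either strand. Mir133a-1 on chromosome 18 had 0 as well, and these 3 of 9 genes compare with 66.2% of all rows at 0 in both libraries. For them a count of 0 sets no upper limit on the miRNA, because stretches of Mir1a-1 recur in Mir1a-2 and Mir1b, and those of Mir133a-1 and Mir133a-2 recur in each other and in Mir133b. An exception is the 5p arm of Mir1a-1, shown above, which was found in no other annotated precursor, whole or without its last 1 or 2 bases. For reads of this arm with a single position in the genome, taking 3 reads as what a count of 0 allows gives a limit of 0.662 CPM in replicate 1, and 0.553 in replicate 2. The rest of the genome was not searched.

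Mir1b was the only gene of this group with counted reads, and it is a special case. Its precursor on the plus strand of chromosome 18 spans that of Mir1a-2 on the minus strand, and Mir1a-2 was not analysed here as a row of its own. On the strand of Mir1b, 8 reads were counted in replicate 1 and 6 in replicate 2. On the opposite strand, where Mir1a-2 lies, 1 read was counted in each library. The tables do not give the place of a read within the precursor. The other 8 genes had 0 reads on their opposite strands in both libraries.

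The libraries were then compared gene by gene, by a two-sided exact binomial test that set each gene's split of reads against the library totals. P-values were adjusted by Benjamini-Hochberg over all 375 genes with 10 or more reads in sum. The test compares 2 libraries, not conditions, and against counting error alone. Of the 9 striated muscle genes, 5 passed the read minimum, and 2 of these were called different, where 42.4% of all tested genes were. Both were higher in replicate 2, a call made for 19.2% of all tested genes. Mir206 differed by a log2 ratio of 0.91 (0.36 to 1.47) with an adjusted p of 0.00210 in the exact test. Mir208a differed by 0.26 (0.09 to 0.43) with an adjusted p of 0.00882. The median log2 ratio of the 5 genes was 0.26, beside -0.03 over the 374 tested genes with reads in both libraries, whose SD was 0.61. The median of the 5 is the value of Mir208a itself, and a shift of the set was not tested.

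Mir208b showed a log2 ratio of 0.04 (-0.06 to 0.15) with an adjusted p of 0.588 in the exact test on the library totals, where the interval covers counting error only. With TMM and DESeq2 size factors its log2 ratio was 0.11 and 0.10. Mir499 stood at 0.36 (-0.26 to 1.00, adjusted p 0.405, exact), and Mir1b at -0.67 (-2.48 to 1.04, adjusted p 0.594, exact). The wide intervals of these genes follow from their 94 and 14 reads in all. Both intervals include 0.91, the log2 ratio of Mir206, so a difference of that size is not excluded for either gene. The smallest difference that could be detected at this depth was not computed. Scaling moved the median of all genes by under 0.1 on the log2 scale. With the trimmed mean of M-values (TMM), 62.3% of called genes were higher in replicate 2, in place of 45.3%. Mir206 and Mir208a stayed higher in replicate 2 with TMM, at 0.98 and 0.33.

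**Figure D3:**
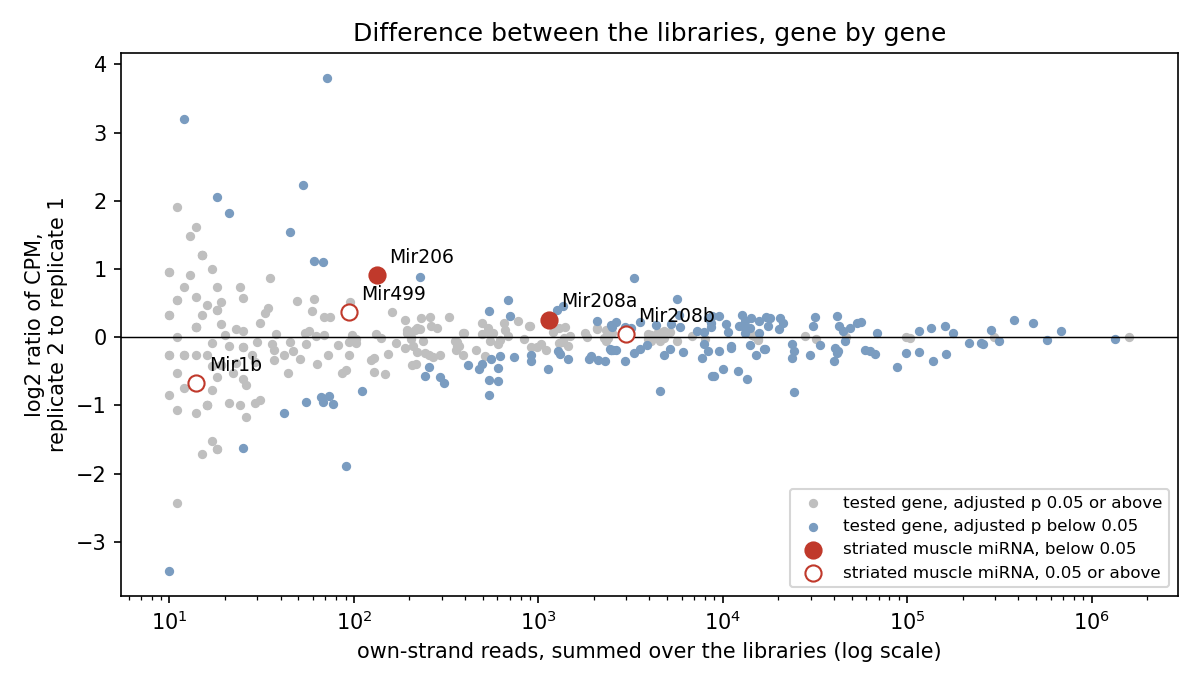
Log2 ratio of CPM in replicate 2 to replicate 1 against the reads of each gene summed over the libraries (log axis), for 374 tested genes, with genes below an adjusted p of 0.05 in blue and the others in grey. Striated muscle miRNAs are in red, filled for Mir206 and Mir208a, which were below 0.05, and open for Mir208b, Mir499 and Mir1b.

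Markers of other tissues were read in the same libraries. Mir143 and Mir145a, miRNAs of smooth muscle, which lacks sarcomeres, stood at 67837 ± 3158 and 1554 ± 22.1 CPM (SD, n = 2), so that Mir143 had 227 times the level of Mir208b. The lung markers Mir126a of endothelium, Mir200c, Mir200b and Mir429 of epithelium, and Mir449a and Mir34c of multiciliated cells were all detected. They totalled 210393 ± 29.1 CPM, most of it Mir126a at 160649 CPM. Between the libraries, 2 of these 6 genes were called higher and 2 lower in replicate 2, beside 19.2% and 23.2% of all tested genes. The small SD of the sum therefore does not hold for each gene. Mir122, the hepatocyte miRNA, stood at 49.5 ± 5.08 CPM, below Mir208a and above Mir206. The 3 pancreas genes Mir216a, Mir216b and Mir217 summed to 1.32 and 1.11 CPM, and of 5 neuronal genes with a row 4 had 0 reads, but all 5 share a stretch with another gene. Mir375, an endocrine miRNA that airway neuroendocrine cells also express, stood at 2112 ± 221 CPM.

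The red cell miRNAs differed between the libraries in opposite directions. Mir144 was higher in replicate 2 by a log2 ratio of 0.87, and Mir451a was lower by a log2 ratio of -0.57, with adjusted p of 1.11e-59 and 1.55e-74 in the exact binomial test. Mir451a shares a stretch with another gene on either strand and Mir144 does not. Mir126a has such a stretch too, at 160649 CPM, so the stretch alone does not tell whether reads were lost. Whether the counts of Mir451a are incomplete was not tested. The liver marker Mir122 stood at 0.21 with an adjusted p of 0.217 in the same exact test. Mir375 stood at 0.21 as well and was called higher (adjusted p 1.11e-25, exact). The summed smooth muscle markers stood at 0.09. Of them Mir143 was called higher at 0.10 (adjusted p 4.48e-158, exact), and Mir145a was not called at -0.03 (0.356, exact). The part of any of these in the differences of Mir206 and Mir208a was not tested.

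**Figure D4:**
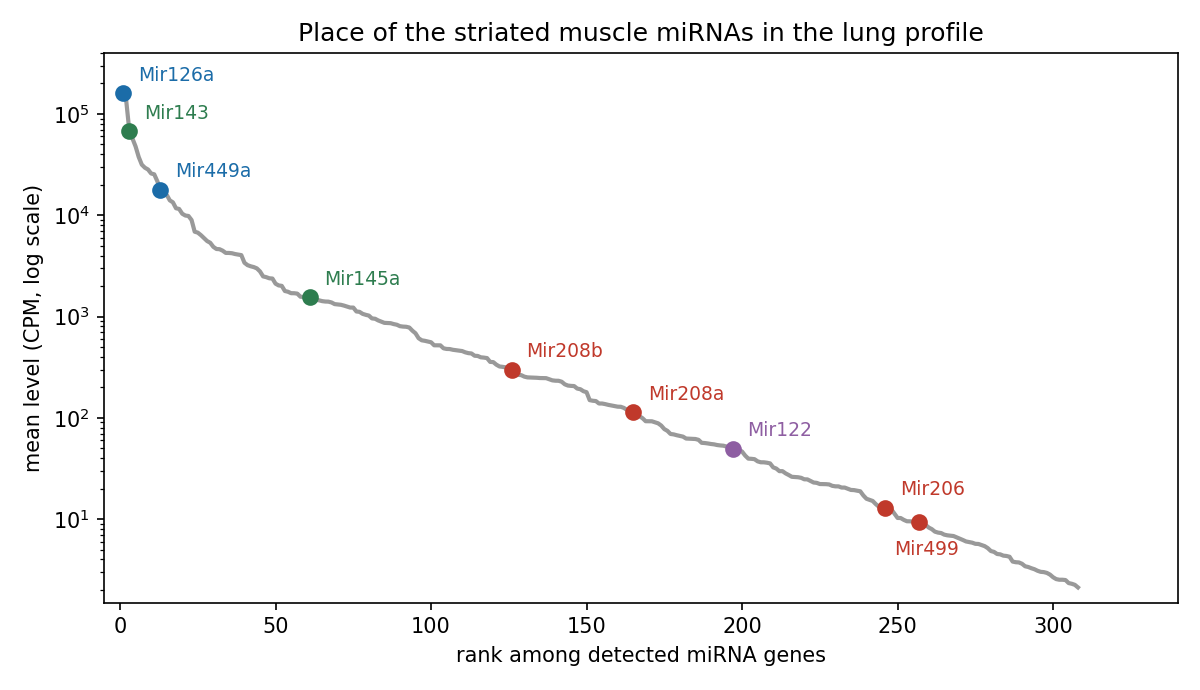
Mean level in CPM (log axis) of the 308 detected miRNA genes, ranked from highest to lowest (grey line), with striated muscle miRNAs in red, smooth muscle in green, endothelial Mir126a and multiciliated Mir449a in blue and hepatocyte Mir122 in purple. Mir208b and Mir208a stand at ranks 126 and 165, and Mir206 and Mir499 at 246 and 257.

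Other miRNAs known to act in muscle, but present in many tissues, formed a list of 14 genes, of which 12 had a row. Mir378a and Mir486b had none. The 12 totalled 18173 ± 407 CPM (SD, n = 2), or 44.2 and 39.2 times the summed level of the striated muscle set in replicates 1 and 2. Both sums leave out reads with several positions, among them any of the Mir1 and Mir133a genes, so these are ratios of counted reads. Mir22, known from cardiac hypertrophy, made up the most of the list's total at 10359 ± 26.8 CPM, followed by Mir214, which targets Ezh2, at 4247 ± 429 CPM. Mir431, known for targeting Pax7 in muscle stem cells, reached 2009 ± 113 CPM and Mir503, which lowers Cdc25a in differentiating myoblasts, 1420 ± 76.1 CPM. All 4 exceeded Mir208b and together held nearly all of the list's total, so the ratios above rest on them. The other listed genes with a row were counted below Mir208b. The highest of those was Mir26a-2 at 56.7 ± 1.90 CPM, which shares a stretch with another gene. Mir486, a miRNA of muscle and red cells, stood at 15.9 ± 2.81 CPM and shares a stretch with another gene.

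In this list 11 genes were tested between the libraries, with 2 called higher and 2 called lower in replicate 2, beside 19.2% and 23.2% of all tested genes. Mir490 was higher by a log2 ratio of 0.88 (adjusted p 5.03e-05, exact binomial), with 71 reads in replicate 1 and 156 in replicate 2, a split close to that of Mir206. Mir431 was higher by 0.11 (1.06e-07, exact binomial). The genes called lower were Mir214 at -0.21 and Mir503 at -0.11.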

How the data were processed

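Small RNA of 2 libraries in 1 group was analysed. The authors deposited 1 table per library of raw read counts per miRNA gene, on mm10 with GENCODE M4 per the text files deposited beside them. The aligner and the counting program are not named in the labels or headers, and neither are trimming or filters. Each table holds 3 count columns, the first equal to the sum of the others. The larger single-strand column, with 98.2% and 98.0% of gene reads, was taken as the gene's own strand and used. The 4 rows naming no gene stayed out of totals; reads mapped to several places were 34.6% and 36.7% of all reads.

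Symbols, positions and precursors came from GENCODE M21 on GRCm38, which matched 1894 of 1973 rows and all 9 genes described, and mature sequences from RefSeq. Intervals and the binomial test used scipy 1.17.1 with a level of 95% and an adjusted p threshold of 0.05, scaling edgeR 4.0.16 (TMM) and DESeq2 1.42.0 (size factors). A count of 0 was given a floor of 3 reads. The binomial test was checked on simulated counts that varied by counting error alone. The test assumes the same, so the check does not cover wider spread between libraries. The quasi-likelihood test of edgeR was not run, since a library alone on each side leaves no spread to estimate. The genes and lists were chosen with earlier results of these data known. Named were all 9 genes, the 2 genes above and below Mir208b and Mir208a in level, and members of the fixed lists. Alternatives were other scaling, strand column, denominator, read minimum, stretch length and leaving out a library.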

Additional observations from a re-analysis of the deposited data

How the results depend on the processing

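The counts were recomputed under each alternative. The calls of Mir206 and Mir208a as higher in replicate 2 were kept under all 5 alternatives run for them, with log2 ratios of 0.90 to 0.98 for Mir206 (adjusted p 7.81e-04 to 0.00373 in the exact binomial test) and 0.26 to 0.33 for Mir208a (4.88e-04 to 0.0157). Mir208b and Mir499 kept their sign and stayed above the threshold under the same 5, and Mir1b under the 4 in which it was tested, as its 14 reads fall under the minimum of 50. For Mir208b the smallest adjusted p was 0.0748, with TMM. Leaving out either of the 2 libraries only returns the value of the other, so it is no further check. The summed level was then 417 to 457 CPM. The log2 ratio of Mir208b to Mir208a was 1.30 to 1.51, and that of Mir208a to Mir206 was 2.87 to 3.52. Against all reads of the table, mapped or not, in place of those on genes, the summed CPM was 234 in place of 437, by construction of the larger denominator. With at least 50 reads in each library, 2 genes were detected in place of 4, as Mir499 and Mir206 lie under that minimum in replicate 1. With at least 3 reads in each library 5 were, Mir1b being the fifth. Stretches of 18 and 22 bases gave 5 and 4 genes with a shared stretch. Counting the same strand only, chosen after seeing the data, gave 4, as Mir1b shares its stretch with the other strand. No paired analysis was possible because the samples form 1 group. Mir133b, with 0 and 2 reads, was too shallow to test.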
